A study of Mus musculus with 10 samples.

Results

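The matrix metalloproteinases and their tissue inhibitors were described here in M-Wnt tumors, in which pyruvate carboxylase (gene Pcx) was targeted for suppression. The set held 10 genes of the 19505 measured, listed by gene name and not by a cut on measured values: the proteases Mmp2, Mmp3, Mmp8, Mmp9, Mmp12, Mmp13 and Mmp14 (7 genes) and the inhibitors Timp1, Timp2 and Timp3 (3 genes). Each had 1 probe set on the array. The set was chosen with earlier results of these data known, so later comparisons of its counts with all genes are descriptive. In the shPC group, mice drank water with 150 µg/ml doxycycline, which induces the short hairpin RNA against Pcx that the injected cells carry. In the Ctrl group, mice drank standard water. M-Wnt is a mesenchymal-like line derived from a Wnt-driven mouse mammary tumor. Both groups received 50000 of the same transduced cells in the 4th mammary fat pad of adult female C57BL6J mice, whose immune system is intact, and 5 tumors per group were profiled on 1 microarray each. Since doxycycline was given to shPC mice alone, suppression of Pcx and exposure to the drug cannot be told apart, and doxycycline is known as a direct inhibitor of matrix metalloproteinase activity. The arrays measured RNA, not enzyme activity.

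Matrix metalloproteinases (MMPs) are zinc-dependent enzymes that cut collagens and other proteins outside the cell. They are made as inactive precursors whose propeptide has to be removed, and the TIMPs hold the active enzymes in check by binding their catalytic site. In mammary tumors, cancer cells, fibroblasts, macrophages and neutrophils each contribute different members. MMPs release growth factors bound to the matrix and open paths for invading cells. Transcription of several secreted MMPs is known to depend on the AP-1 factors (Fos and Jun proteins), which bind a short site close to the transcription start.

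The bases before the transcription start of 4 genes are shown because Mmp13, Mmp12 and Mmp3 had the most negative differences between the groups, whereas Mmp14 was the only member with higher signal in every shPC tumor than in every Ctrl tumor. The 120 bases before the start are from RefSeq (GRCm38.p6), all on the plus strand, with matches to the AP-1 letters TGANTCA (either strand) in capitals. They lie at chr9:7272394-7272513 for Mmp13, chr9:7445702-7445821 for Mmp3, chr9:7347254-7347373 for the second of the annotated starts of Mmp12 and chr14:54431478-54431597 for Mmp14.
Mmp13: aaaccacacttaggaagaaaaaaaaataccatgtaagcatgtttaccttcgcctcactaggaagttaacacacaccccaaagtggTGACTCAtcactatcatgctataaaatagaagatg
Mmp3: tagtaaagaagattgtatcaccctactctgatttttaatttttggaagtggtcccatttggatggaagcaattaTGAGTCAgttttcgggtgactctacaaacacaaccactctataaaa
Mmp12, start 2: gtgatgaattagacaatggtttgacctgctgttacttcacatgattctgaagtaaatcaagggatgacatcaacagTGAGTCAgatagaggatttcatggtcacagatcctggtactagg
Mmp14: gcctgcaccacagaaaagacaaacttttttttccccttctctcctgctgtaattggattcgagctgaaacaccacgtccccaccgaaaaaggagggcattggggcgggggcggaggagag
The AP-1 match began 35 bases before the start of Mmp13, 46 bases before that of Mmp3 and 44 bases before the second start of Mmp12. Of the 8 members with a promoter in the table (not Mmp2 or Mmp9), these 3 genes held the letters within 250 bases of a start, compared with 6.75% of all 32851 promoters at the same length. Mmp14, Mmp8, Timp1, Timp2, Timp3 and the first start of Mmp12 held no match, which says nothing of AP-1 binding elsewhere. The letters AGGAAG, the core of the PEA3 site bound by ETS factors, were found in 7 of the 8 members and in 29.5% of all promoters. For both motifs, members are counted by gene with a match at any start, whereas the shares are per promoter, so they are not strictly alike. Of the starts of Mmp12, the one with the AP-1 match is shown. A match is a description of the letters and not a tested binding site. The 4 genes shown were picked by their measured differences, so match and sign side by side carry no test. The 3 genes with an AP-1 match are neighbours on chromosome 9 and do not count as independent.

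Signals are given on a log2 scale, so that a difference of 1 is a doubling, and differences are shPC minus Ctrl. Pcx itself read 9.91, 4.69, 9.39, 4.49 and 5.15 in shPC tumors 1 to 5, compared with 10.43, 7.24, 11.01, 7.79 and 9.54 in Ctrl tumors 1 to 5 (limma adjusted p = 0.378). Hence, for the targeted gene, the tumors labelled shPC 1 and shPC 3 exceeded Ctrl 2 and Ctrl 4. They were also the shPC tumors with the highest mean signal of adipocyte genes (11.44 and 10.52, the other shPC tumors 6.49 to 7.08, and 8.59 to 12.52 in Ctrl tumors), cells known to express Pcx strongly, and the part of these cells in the Pcx signal was not tested. The array of shPC 5 stood apart, with a median of 7.16 over all genes where the other 9 arrays had medians of 7.35 to 7.47, and its correlation with Ctrl 1 (r = 0.96) was the lowest of any pair. Ctrl 1 also stood apart, with a best correlation of 0.978 with any other array (0.984 for shPC 5, at least 0.989 for the rest) and a mean signal of skeletal muscle genes of 8.71, where the other tumors read 4.13 to 4.82. The mesenchymal marker Vim was high in both groups (17.59 in shPC and 17.56 in Ctrl tumors), and epithelial markers as a list averaged 4.28 to 6.45 in shPC and 5.61 to 7.68 in Ctrl tumors.

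None of the 10 genes passed an adjusted p of 0.05 in limma, and neither did any other gene on the array (0% called higher and 0% called lower). At an unadjusted p of 0.05, 1 member was higher (Mmp14) and 2 were lower (Mmp13 and Timp3), relative to 7.80% of all genes higher and 6.25% lower. Mmp14 was also the 1 member whose shPC tumors all lay above all Ctrl tumors, as did 1.82% of all genes, and 0 members lay wholly below, as did 1.79% of all genes. The median difference over the 10 members was -0.31, compared with 0.04 over all genes, with 7 differences below 0 and 3 above. It ranged from -0.45 to -0.26 when 1 tumor was left out. It was -0.51 without shPC 1 and shPC 3, a setting chosen after seeing the data. Among the 7 proteases 5 differences were below 0 (median -0.38), and among the 3 inhibitors 2 were (median -0.22).

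**Figure D1:**
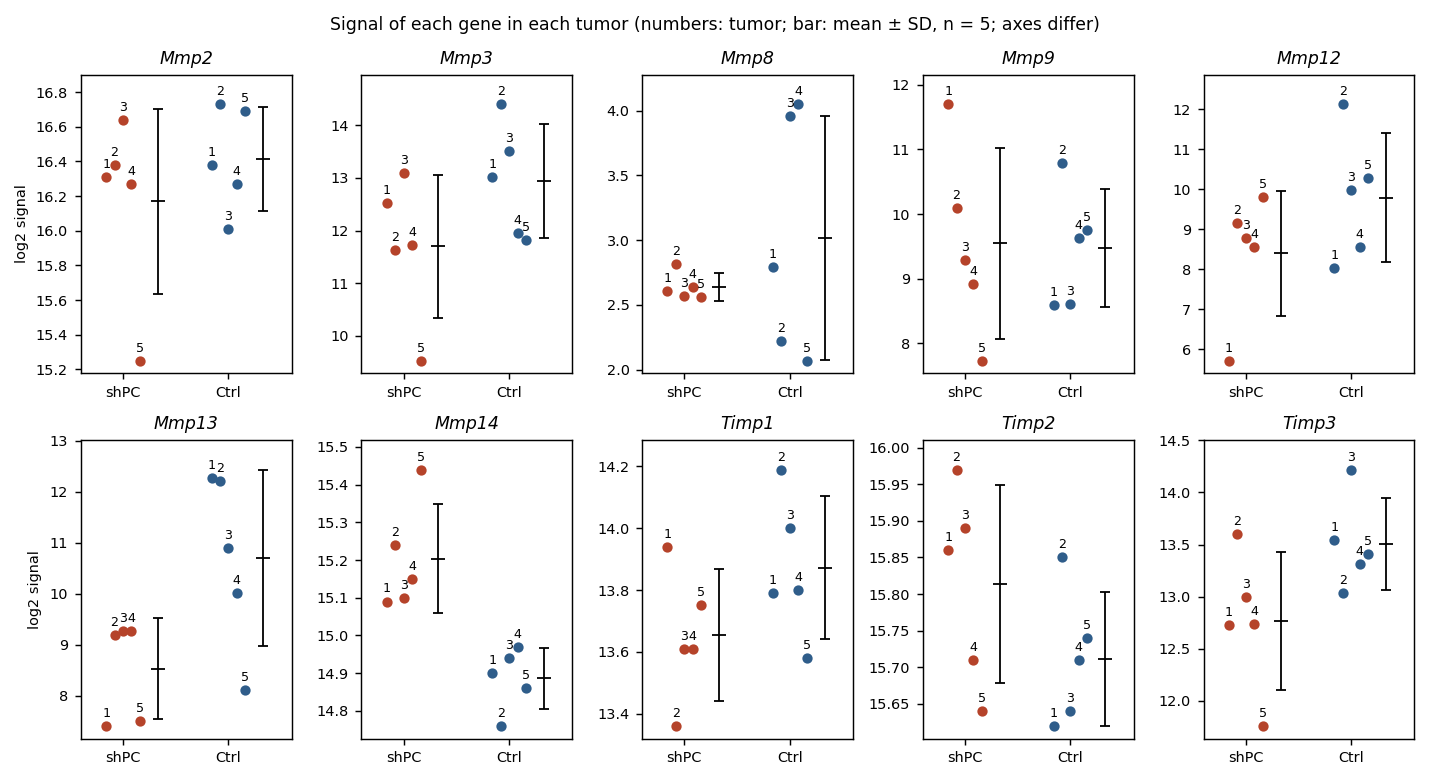
Log2 signal (vertical axes, which differ between panels) of the 10 genes in each of 5 shPC tumors (left) and 5 Ctrl tumors (right), numbered as labelled, with the mean and SD beside each group. Mmp14 is the only gene without overlap between the groups, and shPC 5 is the lowest tumor for Mmp2, Mmp3, Mmp9 and Timp3.

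Mmp13, the main interstitial collagenase of the mouse, showed the largest difference of the set. Its signal was 7.41, 9.19, 9.28, 9.28 and 7.50 in shPC tumors 1 to 5, compared with 12.28, 12.22, 10.89, 10.01 and 8.11 in Ctrl tumors 1 to 5. All shPC tumors lay below Ctrl tumors 1 to 4, and the groups overlapped through Ctrl 5 alone. Mean signal was 8.53 ± 0.98 in shPC and 10.70 ± 1.73 in Ctrl tumors (SD, n = 5 each), a difference of -2.17 (SE 0.76), with a 95% interval of -3.83 to -0.51. This did not pass the correction over all genes (limma adjusted p = 0.254, exact two-sided permutation p = 0.0556). Without single tumors the difference ranged from -2.82 (without Ctrl 5) to -1.78 (without Ctrl 1, its highest tumor).

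Mmp8, the collagenase stored in neutrophil granules, was near the floor of the array. Its signal lay below the 30th percentile of all genes on all 10 arrays, at 2.61, 2.82, 2.57, 2.64 and 2.56 in shPC tumors 1 to 5, compared with 2.79, 2.22, 3.96, 4.05 and 2.07 in Ctrl tumors 1 to 5. The Ctrl tumors thus held both the highest and the lowest values, and the difference of -0.38 (SE 0.37, limma adjusted p = 0.671) was -0.12 without Ctrl 4, -0.14 without Ctrl 3, -0.58 without Ctrl 2 and -0.62 without Ctrl 5. Averaged over the list, neutrophil markers read 4.17 to 4.81 in shPC tumors and 4.70 to 5.43 in Ctrl tumors. Of these markers, 4 of 11 were lower at an unadjusted p of 0.05. Not all were dim. Csf3r averaged 11.07 in shPC and 11.90 in Ctrl tumors, without overlap (difference -0.83, limma adjusted p = 0.193). Csf3r and Stfa2l1 exceeded the 30th percentile on all 10 arrays and Cxcr2 on 9. S100a8 and S100a9, which neutrophils hold in large amounts, did so on 5 and 8 arrays. Ltf did so on 4, Retnlg, Mpo, Elane and Ngp on 1 each, and the granule gene Camp on 0.

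Mmp3 (stromelysin 1) cuts proteoglycans and laminin and activates other pro-MMPs. Its signal was 12.53, 11.64, 13.10, 11.73 and 9.53 in shPC tumors 1 to 5, compared with 13.01, 14.40, 13.51, 11.95 and 11.82 in Ctrl tumors 1 to 5. The 3 shPC tumors numbered 2, 4 and 5 lay below all Ctrl tumors, and the groups overlapped. Means were 11.71 ± 1.36 in shPC and 12.94 ± 1.08 in Ctrl tumors (SD, n = 5 each), and the difference of -1.23 (SE 0.66, 95% interval -2.69 to 0.22) was within the spread between tumors (limma adjusted p = 0.430, exact permutation p = 0.151). It was -0.69 without shPC 5 and -1.97 without shPC 1 and shPC 3 (limma adjusted p = 0.671 and 0.224).

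Mmp12 (macrophage elastase) had the widest spread of the set. Its signal was 5.71, 9.14, 8.77, 8.55 and 9.79 in shPC tumors 1 to 5, compared with 8.02, 12.12, 9.97, 8.54 and 10.27 in Ctrl tumors 1 to 5. All shPC tumors but shPC 1 lay among the Ctrl values, and shPC 1 was the lowest of all 10 tumors and Ctrl 2 the highest. The difference of -1.39 (SE 0.85, 95% interval -3.27 to 0.48, limma adjusted p = 0.490, exact permutation p = 0.238) was -0.72 without shPC 1, -0.81 without Ctrl 2, -0.62 without shPC 1 and shPC 3 and -2.18 without shPC 5 and Ctrl 1. Macrophage markers as a list overlapped between the groups, with mean signals of 12.81 to 13.38 in shPC and 13.01 to 13.27 in Ctrl tumors. Within the list both signs occurred, with 8 of 11 differences below 0 and 3 above. At the unadjusted threshold used for the set, 1 marker was higher (Mrc1, 0.83) and 2 were lower (Fcgr1, -0.37, and C1qa, -0.32). None of them passed the adjustment (limma adjusted p = 0.284, 0.276 and 0.298). For C1qa every shPC tumor was below every Ctrl tumor.

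The gelatinases Mmp2 and Mmp9 cut denatured collagen and the type IV collagen of basement membranes. Mmp2, which is made mainly by stromal and mesenchymal cells, read 16.31, 16.38, 16.64, 16.27 and 15.25 in shPC tumors 1 to 5, compared with 16.38, 16.73, 16.01, 16.27 and 16.69 in Ctrl tumors 1 to 5. Only shPC 5 lay outside the Ctrl range. The difference of -0.25 (SE 0.25, 95% interval -0.80 to 0.31, limma adjusted p = 0.685) was -0.02 without shPC 5 and -0.45 without shPC 1 and shPC 3. Mmp9, known from neutrophils and macrophages, read 11.70, 10.10, 9.29, 8.91 and 7.73 in shPC tumors 1 to 5, compared with 8.59, 10.79, 8.61, 9.63 and 9.75 in Ctrl tumors 1 to 5. The shPC tumors held both the highest and the lowest value. The groups averaged 9.55 ± 1.48 in shPC and 9.47 ± 0.92 in Ctrl tumors (SD, n = 5 each), and the difference of 0.07 had a wide 95% interval, -1.38 to 1.53 (limma adjusted p = 0.973). Its sign turned on single tumors, from -0.47 without shPC 1 to 0.53 without shPC 5.

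Mmp14 is the membrane-type MMP that removes the propeptide of Mmp2 at the cell surface, in a complex with Timp2, and cuts fibrillar collagen itself. Its signal was 15.09, 15.24, 15.10, 15.15 and 15.44 in shPC tumors 1 to 5, compared with 14.90, 14.76, 14.94, 14.97 and 14.86 in Ctrl tumors 1 to 5. Every shPC tumor exceeded every Ctrl tumor. The means of 15.20 ± 0.14 in shPC and 14.89 ± 0.08 in Ctrl tumors (SD, n = 5 each) differed by 0.32 (SE 0.12, 95% interval 0.06 to 0.58). The exact permutation p of 0.00794 is the smallest that 5 tumors against 5 can give, and after correction over all genes the difference did not pass (limma adjusted p = 0.276). Without single tumors it ranged from 0.26 to 0.35. The differences of Mmp2 (-0.25), the substrate of this step, and Timp2 (0.10) were within the spread between tumors (limma adjusted p = 0.685 and 0.727). Their signs therefore say nothing of this step.

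Of the inhibitors, Timp3 is the one bound to the matrix and also blocks ADAM proteases. It read 12.73, 13.60, 13.00, 12.74 and 11.76 in shPC tumors 1 to 5, compared with 13.54, 13.04, 14.22, 13.31 and 13.41 in Ctrl tumors 1 to 5. All shPC tumors but shPC 2 lay below all Ctrl tumors. The means of 12.77 ± 0.66 in shPC and 13.50 ± 0.44 in Ctrl tumors (SD, n = 5 each) differed by -0.74 (SE 0.32, 95% interval -1.43 to -0.04, limma adjusted p = 0.332, exact permutation p = 0.0635), and by -0.49 without shPC 5.

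Timp1, a soluble inhibitor induced in inflamed tissue, read 13.94, 13.36, 13.61, 13.61 and 13.75 in shPC tumors 1 to 5, compared with 13.79, 14.19, 14.00, 13.80 and 13.58 in Ctrl tumors 1 to 5. The groups overlapped, with a difference of -0.22 (95% interval -0.56 to 0.12, limma adjusted p = 0.553), which was -0.14 without shPC 2 and -0.14 without Ctrl 2. Timp2, which both inhibits MMPs and serves Mmp14 in the activation of Mmp2, read 15.86, 15.97, 15.89, 15.71 and 15.64 in shPC tumors 1 to 5, compared with 15.62, 15.85, 15.64, 15.71 and 15.74 in Ctrl tumors 1 to 5. Its difference of 0.10 (95% interval -0.16 to 0.36, limma adjusted p = 0.727) was within the spread between tumors, and it was 0.06 without shPC 2 and 0.06 without shPC 1 and shPC 3.

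**Figure D2:**
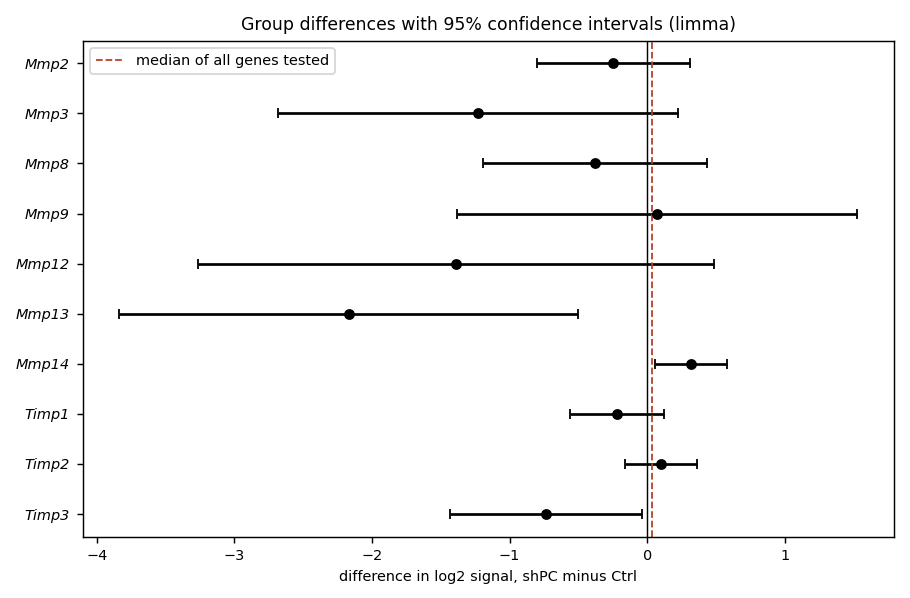
Difference in log2 signal (shPC minus Ctrl, horizontal axis) for each of the 10 genes, with points for the limma estimate and bars for its 95% confidence interval, and a dashed line at the median of all genes (0.04). The intervals of Mmp13 and Timp3 lie below 0 and that of Mmp14 lies above 0, all before correction over all genes, and Mmp12 has the widest.

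Single tumors weighed unequally on the set. Of the 10 genes, 4 were lowest of all tumors in shPC 5 (Mmp2, Mmp3, Mmp9 and Timp3), and 4 were highest in Ctrl 2 (Mmp2, Mmp3, Mmp12 and Timp1). Mmp14 and Timp2 varied least within the groups and Mmp12, Mmp13, Mmp3 and Mmp9 most, on the log2 scale. In whole tumors, fewer cells of a type and less RNA per cell cannot be told apart. Markers of all leukocytes averaged 12.30 to 12.90 in shPC tumors and 13.01 to 13.53 in Ctrl tumors without overlap, with 7 of 10 lower at an unadjusted p of 0.05. T and NK cell markers spanned 6.50 to 10.18 in shPC tumors, where shPC 5 was lowest, and 10.10 to 11.29 in Ctrl tumors, with 9 of 10 lower at that level. With the leukocyte list as a covariate, the differences of Mmp13, Mmp12 and Mmp14 were -0.11, -0.55 and 0.16, those of Mmp2, Mmp3 and Timp3 changed sign (0.28, 1.33 and 0.30, limma adjusted p = 0.999 each), and the median of the 10 genes was 0.21, a fit that extrapolates because the groups share no value of that list. Fibroblast markers overlapped widely, at 7.86 to 9.66 in shPC and 7.88 to 9.27 in Ctrl tumors, with 0 of 9 past an unadjusted p of 0.05. Adipocyte markers had a median difference of -1.93 (-2.75 to -1.32 when 1 tumor was left out), with 11 of 11 differences below 0 and 0 past that level. The part of any of these cells in the MMP differences was not tested.

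Mmp13, Mmp12, Mmp3 and Mmp8 are neighbours in a cluster of 10 Mmp genes on chromosome 9, with no other protein-coding RefSeq gene in between. In their order along the chromosome, the differences were -2.17 for Mmp13, -1.39 for Mmp12, 0.32 for Mmp1b, -1.23 for Mmp3, 0.37 for Mmp1a, 0.42 for Mmp10, -0.38 for Mmp8, -0.05 for Mmp20 and -0.18 for Mmp7, and Mmp27 was not analysed here. Both signs occurred along the row, and Mmp1b, Mmp1a, Mmp8 and Mmp7 were below the 30th percentile on all arrays. Mmp10 (stromelysin 2), the closest relative of Mmp3 in this row with measurable signal, averaged 7.16 in shPC and 6.75 in Ctrl tumors (limma adjusted p = 0.644). Since Mmp3 and Mmp10 are close in sequence, probe sets of either may share signal, and their separation is uncertain.

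**Figure D3:**
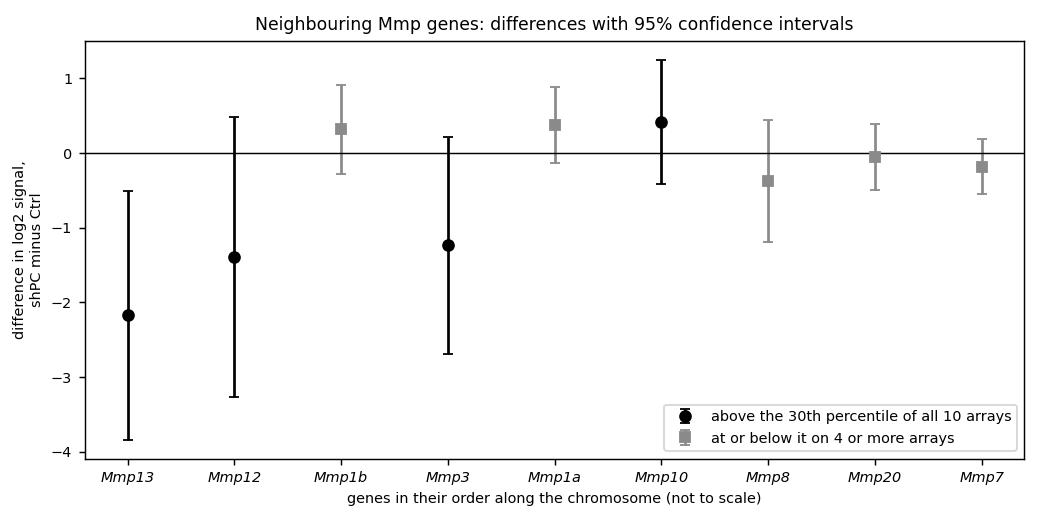
Difference in log2 signal (shPC minus Ctrl, vertical axis) of 9 measured Mmp genes in their order along chromosome 9, with 95% confidence intervals; gray squares mark genes at or below the 30th percentile of signal on 4 or more arrays. Mmp13, Mmp12 and Mmp3 are below 0 and Mmp10 above it, and only the interval of Mmp13 leaves out 0.

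Among 15 other MMP and Timp4 genes, 0 were higher and 1 was lower at an unadjusted p of 0.05, with a median difference of -0.04 (-0.14 to 0.05 when 1 tumor was left out). The lower one was Mmp25, a membrane-anchored MMP known from leukocytes, with 8.18, 7.98, 8.98, 8.15 and 4.32 in shPC tumors 1 to 5, compared with 9.49, 9.79, 10.53, 9.12 and 8.88 in Ctrl tumors 1 to 5 (difference -2.04, SE 0.74, limma adjusted p = 0.264). Only shPC 3 reached into the Ctrl range, and shPC 5 was far the lowest. Mmp21 (0.26), Mmp1a (0.37) and Mmp17 (0.27), next by p, had low signal, with Mmp21 and Mmp1a above the 30th percentile on 0 arrays and Mmp17 on 2.

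Pro-MMPs can be activated by plasmin, which the urokinase Plau makes from plasminogen. Of 9 genes of that system, 1 was higher and 0 were lower at an unadjusted p of 0.05. Plau had 12.52, 12.92, 12.58, 12.95 and 13.39 in shPC tumors 1 to 5, compared with 12.21, 12.01, 11.73, 12.54 and 12.09 in Ctrl tumors 1 to 5 (difference 0.76, SE 0.20, limma adjusted p = 0.194). The groups overlapped by the values of shPC 1 and Ctrl 4 alone. Anxa2, a surface protein that binds plasminogen and its activator, was below all Ctrl tumors in every shPC tumor by a small difference (-0.23, limma adjusted p = 0.359). The urokinase inhibitor Serpinb2 (-1.66) read 3.73 to 4.35 in shPC tumors and 3.06 to 8.09 in Ctrl tumors, highest in Ctrl 1 and Ctrl 2, and the plasminogen receptor Plgrkt had a difference of -0.32. Of 12 surface and soluble partners of MMPs, 0 were higher and 1 was lower at that level. The lower one was the broad protease inhibitor A2m (-0.81, limma adjusted p = 0.228), followed by the membrane-anchored MMP inhibitor Reck (-0.65), the matrix protein Thbs1 (0.61) and the caveolar protein Cav1 (-0.19).

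Of 21 related ADAM and ADAMTS proteases, 5 were higher and 3 lower at an unadjusted p of 0.05. Adam12, a shedding protease found in mesenchymal tumor cells, read 11.53, 10.37, 10.03, 10.68 and 11.77 in shPC tumors 1 to 5, compared with 9.71, 9.04, 9.12, 10.01 and 9.21 in Ctrl tumors 1 to 5 (difference 1.46, SE 0.34, limma adjusted p = 0.185). Every shPC tumor was above every Ctrl tumor, though shPC 3 and Ctrl 4 nearly touched. The aggrecanase Adamts4 differed by 0.73, Adamts8 by 1.34 and Adamts6 by -0.73 (limma adjusted p = 0.194, 0.260 and 0.240). Of 11 cathepsins and cystatins, 1 was higher and 1 lower. The lysosomal Ctsl was above all Ctrl tumors in every shPC tumor (0.41, limma adjusted p = 0.317), though shPC 1 (15.55) and Ctrl 1 (15.54) nearly touched. Ctsh (-0.40), the cystatin Cstb (-0.31) and Ctss (-0.36), a protease of antigen-presenting cells, had negative differences.

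Of 16 matrix substrates, 3 were higher and 1 was lower at an unadjusted p of 0.05 (median 0.15, and 0.10 without shPC 5). The 3 were chains of basement membrane and fibrillar collagens, Col4a1 (0.73), Col4a2 (0.48) and Col5a1 (0.51), with limma adjusted p of 0.299, 0.228 and 0.254. The proteoglycan decorin (Dcn) read 15.55, 16.78, 16.58, 16.09 and 13.64 in shPC tumors 1 to 5, compared with 16.73, 17.22, 16.97, 16.96 and 16.89 in Ctrl tumors 1 to 5 (difference -1.23, limma adjusted p = 0.298). As for Mmp2 and Mmp3, its lowest tumor was shPC 5.

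Cytokines and growth factors that are known to induce or repress MMPs had 2 genes higher and 2 lower of 13 at an unadjusted p of 0.05 (median -0.38, which was -0.24 without shPC 5 and -0.25 without shPC 3). Ifng, the interferon of T and NK cells, read 5.92, 6.78, 7.19, 7.74 and 5.55 in shPC tumors 1 to 5, compared with 8.77 to 9.30 in the 5 Ctrl tumors (difference -2.39, SE 0.36, limma adjusted p = 0.106). Tnf, known as an inducer of Mmp3, Mmp9 and Mmp13, differed by -1.26 (limma adjusted p = 0.185), with 8.37, 8.67, 8.22, 8.53 and 7.76 in shPC tumors 1 to 5, compared with 8.63, 9.57, 10.01, 9.94 and 9.70 in Ctrl tumors 1 to 5. Ifng did not overlap between the groups, and Tnf overlapped through shPC 2 and Ctrl 1 alone. Tgfb2 (1.25) and the macrophage growth factor Csf1 (0.43) had positive differences (limma adjusted p = 0.189 and 0.350).

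Of 12 AP-1 and ETS transcription factors, 3 were higher and 2 lower at an unadjusted p of 0.05 (median 0.01, and -0.05 to 0.08 when 1 tumor was left out). Etv4, the ETS factor also called PEA3, read 11.05, 10.19, 10.58, 10.85 and 11.57 in shPC tumors 1 to 5, compared with 8.92, 9.45, 8.75, 9.81 and 9.72 in Ctrl tumors 1 to 5 (difference 1.52, SE 0.28, limma adjusted p = 0.148). Every shPC tumor was above every Ctrl tumor. Its relative Etv1 (0.66) and the ETS factor Ets2 (0.60) had positive differences, and Junb, a member of AP-1, had a negative one (-0.50, limma adjusted p = 0.285). Of the members with a promoter in the table, 7 held PEA3 letters. Mmp13, Mmp12, Mmp3, Mmp8, Timp1 and Timp3 had differences below 0, and Mmp14 had one above 0. Timp2, without these letters, had a difference of 0.10. The letters lay at 109 and 62 bases before the start for Mmp13 and at 209 for Mmp14. Whether Etv4 acts on any of these genes was not tested.

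**Figure D4:**
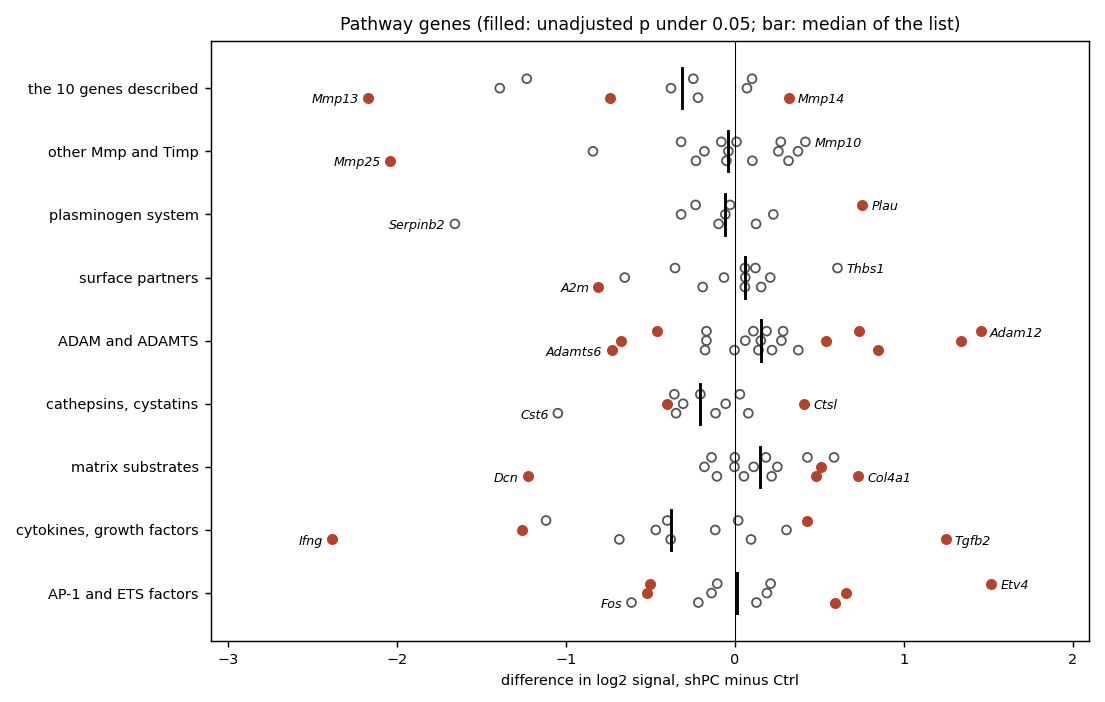
Difference in log2 signal (shPC minus Ctrl, horizontal axis) of each measured gene, with the 10 genes described on top and the 8 pathway lists below. Filled points passed an unadjusted p of 0.05, short vertical bars mark list medians, and the genes at either end of a list are named; no gene passed the adjusted p. Filled points lie on both sides of 0 in most lists.

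With the group means removed, the genes whose signal followed Mmp13 most closely over the 10 tumors were Ceacam16 (Pearson r = 0.95), Smpdl3a (0.93), Fcho2 (0.93), Olfr656 (0.93) and Gm10406 (0.90). Those of Mmp12 were Ang6 (0.96), Olfr153 (0.95), Slc29a2 (0.94), Sacm1l (0.93) and Galr1 (0.93). No gene of the MMP family was among them, but lists this short cannot show whether the members varied together. Between pairs of members, r ranged from -0.89 (Mmp2 with Mmp14) to 0.78 (Mmp9 with Timp2). Olfr656 and Olfr153 were below the 30th percentile on all 10 arrays. The correlations listed for Mmp13 and Mmp12 are the highest over all genes, so they describe these tumors and carry no test.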

How the data were processed

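RNA of whole tumors was hybridised to Clariom S mouse arrays after labelling with the WT PLUS kit. The values deposited by the authors were read as log2 signals. Their base and normalization are not given in the sources used here, and array maxima of 19.04 to 19.19 exceed the log2 range of a 16-bit scanner, so differences assume base 2. Of 22206 probe sets, 19572 name 1 gene, and the one with the highest mean was kept for 55 genes with several, which left 19505 genes. Groups came from the labels. No label says whether a mouse gave more than 1 tumor, and tumors that share a mouse would not be independent, which would make the p-values too small. Groups were compared with limma 3.58.1 in R 4.3.3 without a filter, with Benjamini-Hochberg adjustment over all genes and a threshold of 0.05. Exact permutation tests used all 252 splits, two-sided. The fit was tested on simulated data. Lists came from general knowledge, and the members and lists were chosen with earlier results of these data known. Named genes were all members, up to 4 genes of smallest p per pathway list, and the 5 most like Mmp13 (smallest p) and Mmp12 (largest SD with Mmp13). The 13 kinds of alternatives included other normalizations, a filter at the 30th percentile, covariates, a replicate block and leaving out tumors. Some genes of the lists are not reported here.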

Additional observations from a re-analysis of the deposited data

Results flagged for a closer look

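In shPC tumor 5, Mmp2 read 15.25, and the nearest of the other 4 shPC tumors read 16.27, a gap of 0.73 of the range of the group and above the Dixon critical value of 0.71 for 5 samples. Of 20 groups of member values tested this was the only one past it, where chance gives about 1 in 20. The same tumor was the lowest for Mmp3, Mmp9 and Timp3, and its array had the lowest median over all genes (7.16). Whether this tumor or its array accounts for the value was not tested.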

How the results depend on the processing

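None of the 10 genes passed an adjusted p of 0.05 under any of 24 other settings. The smallest was 0.166, for Mmp14 with trend and robust variances in limma. Of 239 member values, 231 kept their sign. Some of these values could not change sign, because some settings leave the difference itself as it is. Those settings were trend and robust variances, the t-test, averaging a gene's probe sets, the replicate block and the filter on dim probe sets. With the leukocyte list as a covariate Mmp2 was 0.28, Mmp3 1.33 and Timp3 0.30, Mmp8 -0.19, Mmp9 0.83 and Timp2 0.26, and the members' median 0.21. Mmp9 ranged from -0.47 to 0.53 when 1 tumor was left out (-0.07 without shPC 2, -0.15 without Ctrl 1, -0.14 without Ctrl 3) and was -0.56 without shPC 1 and shPC 3, a setting chosen after seeing the data, as was leaving out shPC 5 and Ctrl 1. Over all genes, 0 were called in either direction, compared with 5 higher and 5 lower with trend and robust variances, 4 higher and 13 lower with the macrophage list as a covariate, and 0 higher and 1 lower with arrays centred on their median. Leaving out 1 tumor gave 0 to 1 higher (1 without shPC 2) and 0 to 4 lower (4 without shPC 4, 1 without Ctrl 4). At an unadjusted p of 0.05, limma gave 1521 higher and 1219 lower. The t-test that the methods state for pairs of groups gave 1613 and 1045, with 0 after adjustment. For array genes the methods name the Transcriptome Analysis Console and an FDR q under 0.05. That software was not run here.

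Centring arrays on their median moved the median of all genes to 0.14 and gave 2180 higher and 852 lower at an unadjusted p of 0.05 (71.9% higher, compared with 55.5%). Relative to the members' main values it moved Mmp2 to -0.15 (also -0.15 with array weights), Timp1 to -0.12, Timp2 to 0.20 and Mmp9 to 0.17, and the medians of the other MMPs and of the plasminogen system to 0.06 and 0.04. The adipocyte list as a covariate gave -0.67 for Mmp3 and -2.12 for Mmp12. No label says that same-numbered tumors are paired. The correlations between their deviations from the group means were 0.044 to 0.281, low but all positive, which cannot settle whether they pair. In the fit with a replicate block, 0 genes were called (1547 higher and 1465 lower unadjusted). Mmp13 had -2.17 (adjusted p = 0.174), with adjusted p of 0.202 for Mmp12, 0.228 for Mmp3 and 0.333 for Mmp14. The block lowered the SE of Mmp12 from 0.85 to 0.43 and that of Mmp3 from 0.66 to 0.41. It raised that of Mmp14 from 0.12 to 0.14 and that of Mmp2 from 0.25 to 0.28. The filter on dim probe sets left 13773 genes and dropped Mmp8. The cause of these changes was not tested. The number of tumors and arrays limits the precision, and Mmp8 was too dim for its difference to be resolved.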
